A study of Homo sapiens with 12 samples.

Results

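Interferon-stimulated genes are a set of 43 genes named from the textbook interferon response, taken here as 1 gene module and read on all 12 arrays of a drug-treatment time course. For each listed gene the row of the value table that carried its symbol alone was used, and the row with the highest mean where a gene had several. Of the 43 genes, 42 had such a row, out of 22395 named genes in 53617 rows, and STAT2 was not analysed here. Members with a low signal were kept, and their untreated level is given.

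The cells were NCI-H1975, an established human lung adenocarcinoma line whose EGFR carries L858R and T790M on all 12 arrays. Erlotinib inhibits the EGFR kinase, and quinacrine is an acridine antimalarial that binds DNA; the series concerns resistance to erlotinib and the effect of quinacrine on it. The series held 1 untreated array, whose label gives no time. Erlotinib alone was given at 1 µM and read after 6, 12, 24 and 48 h (4 arrays). Quinacrine alone was given at 3 µM and read after 6, 12 and 24 h (3 arrays). Both at these doses, called the combination here, were read at the same 4 times as erlotinib (4 arrays). The protocol text also names 5 µM quinacrine, but the label of every array with quinacrine says 3 µM. Each treatment and time had 1 array, so n counts time points. The labels do not place the arrays in separate cultures, and a p-value here reflects the scatter among single arrays, which may be technical.

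Type I and type III interferons are secreted in response to viral or misplaced nucleic acids and signal through receptors on the same and neighbouring cells. The receptors' kinases activate STAT proteins, which bind IRF9 to form the complex ISGF3, and this complex binds an interferon-stimulated response element (ISRE) in the promoters of the induced genes. Their products block viral entry, degrade or sequester viral RNA, attach the ubiquitin-like protein ISG15 to other proteins, and include sensors and factors that feed back on the response.

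Values are the deposited log2 levels, a level being the brightness of a gene's probes on a log2 scale, so a log2 difference of 1 is 2-fold. Array medians over all rows lay between 1.39 and 1.64. The combination 6 h array stood apart, with a median of 6.18 over the 5820 tested genes against 6.385 to 6.56 on the other arrays, and with the narrowest spread of values. Of 9 listed epithelial markers 5 had a mean of at least 5, among them EPCAM at 8.35 to 8.67 and CDH1 at 10.08 to 10.53. The others were lower. KRT18 read 4.47 to 5.01, and NAPSA, SFTPB and KRT8 did not exceed 4.08, 1.87 and 3.48. The summed log2 level of 9 epithelial markers was 52.56 untreated, 50.83 to 55.0 with erlotinib, 51.02 to 53.56 with quinacrine and 51.39 to 54.24 with the combination. That of 10 markers of leukocytes, plasmacytoid dendritic cells, fibroblasts and endothelium was 21.94, 21.34 to 22.86, 21.41 to 22.23 and 20.89 to 23.83, and 1 of them, CD68, a lysosomal protein, was above 5. PTPRC read 0.63 to 1.38 and CLEC4C, a marker of plasmacytoid dendritic cells, 1.06 to 1.91, near or below the array medians. As in any bulk sample, more cells of a kind and more RNA per cell cannot be told apart.

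Promoter windows from RefSeq (GRCh38.p14; 250 bases before to 50 after a start site, 300 in all) were matched to 34 of the 42 members, some with several windows. They were searched on both strands for the core letters of the ISRE, GAAA followed 2 bases later by GAAA (TTTC, 2 bases, TTTC on the opposite strand), and for TTCNNNGAA, the core of the element bound by STAT dimers, a motif that reads the same on both strands. The ISRE core was present for 25 of the 34 members (73.5%), against 4.38% of the 27305 genes with a window. TTCNNNGAA was present for 12 of the 34 (35.3%), against 9.38%. The whole ISG15 window (chr1:1013247-1013546, plus strand) is shown because ISG15 is named after this class of genes. For members of different roles, 30-base stretches around the first match are shown. Capitals mark every match to the ISRE core on either strand, and matches that overlap run together. LGALS3BP and IFITM3 are shown because they hold the motif while their late arrays overlapped with the others. The first matches lie at chr10:89392497-89392526, plus strand (IFIT1), chr21:41420559-41420588, plus strand (MX1, 12 bases after the start), chr12:112938321-112938350, plus strand (OAS3), chr7:93118096-93118125, minus strand (SAMD9), chr19:17405741-17405770, minus strand (BST2), chr3:122680800-122680829, plus strand (PARP14), chr3:122564322-122564351, plus strand (DTX3L), chr11:313990-314019, plus strand (IFITM1), chr17:78979962-78979991, minus strand (LGALS3BP) and chr11:320893-320922, minus strand (IFITM3). DTX3L and PARP9 face away from each other and share that 1 match, which PARP9 holds on the minus strand.
ISG15 window: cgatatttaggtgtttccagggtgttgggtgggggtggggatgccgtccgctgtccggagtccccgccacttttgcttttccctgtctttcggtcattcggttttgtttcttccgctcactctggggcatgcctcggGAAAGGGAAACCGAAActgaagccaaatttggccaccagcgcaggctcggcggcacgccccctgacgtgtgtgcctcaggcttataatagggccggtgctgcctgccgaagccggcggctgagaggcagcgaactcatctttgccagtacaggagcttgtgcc
IFIT1: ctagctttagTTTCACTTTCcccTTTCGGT
MX1: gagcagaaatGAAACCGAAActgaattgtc
OAS3: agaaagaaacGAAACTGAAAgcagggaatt
SAMD9: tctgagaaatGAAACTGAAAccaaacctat
BST2: tcctttctggGAAACTGAAACTGAAAacct
PARP14: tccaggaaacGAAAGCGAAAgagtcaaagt
DTX3L: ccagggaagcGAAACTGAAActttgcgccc
IFITM1: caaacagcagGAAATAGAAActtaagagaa
LGALS3BP: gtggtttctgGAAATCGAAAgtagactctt
IFITM3: caaatgccagGAAAAGGAAActgttgaGAA

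In the ISG15 stretch the motif occurs in 2 overlapping copies, and BST2 likewise holds 2 overlapping matches. With exactly 2 bases between its parts, the ISRE core was not found for CMPK2, HERC6, IFI35, IRF9, OAS1, SAMD9L, SP110, UBE2L6 and XAF1. Other spacings were not searched, so these genes are not shown to lack an ISRE. The OAS1 window and the second XAF1 window hold GAAACGAAA, and a CMPK2 window holds TTTCGTTTC, the same letters with a shorter spacing. XAF1 is shown as the member with the steepest change among those tested. Neither of its 2 windows held a match with the 2-base spacing. The first window, shown here, lies at chr17:6755197-6755496, plus strand. A match is a description of letters and not a site of binding.
XAF1 window: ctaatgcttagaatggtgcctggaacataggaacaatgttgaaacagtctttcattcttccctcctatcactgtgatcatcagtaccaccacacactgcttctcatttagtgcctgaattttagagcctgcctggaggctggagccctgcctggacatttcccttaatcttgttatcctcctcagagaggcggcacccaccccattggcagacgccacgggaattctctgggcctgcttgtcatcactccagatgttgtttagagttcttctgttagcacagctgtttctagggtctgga

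Before treatment most members were low. On the untreated array 27 of the 42 lay below 5 and 15 at or above it, from 1.21 for TRIM22 to 9.67 for LGALS3BP, a secreted glycoprotein. A mean of at least 5 over the 12 arrays, required for the main test, was reached by 25 members, and 10 of these 25 were below 5 on the untreated array and passed through the treated arrays. The 17 members below that mean were IRF7, ISG15, HERC5, UBE2L6, IFIT2, OAS1, MX1, MX2, RSAD2, CMPK2, TRIM22, ISG20, SAMD9L, IFI27, EPSTI1, SP110 and PLSCR1. Their untreated levels ran from 1.21 to 4.59.

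The members were higher late in the course, on the arrays with quinacrine, with or without erlotinib. The log2 differences from the untreated array had a median over the 42 members of -0.11 at 6 h, 0.40 at 12 h and 2.10 at 24 h with quinacrine, and of -0.21, 0.50, 1.90 and 2.02 at 6, 12, 24 and 48 h with the combination. With erlotinib alone the medians were 0.06, 0.08, 0.26 and 0.58. Over all 5820 tested genes the same medians stayed between -0.21 and 0.09. At 24 h with quinacrine 34 members were at least 2-fold above the untreated array, against 1.92% of the tested genes (2.63% of all named genes). The combination had 34 such members at 24 h (1.74% of the tested genes) and 36 at 48 h (2.42%), and erlotinib had 10 at 48 h (1.36%) and none at 6, 12 or 24 h (0.0515%, 0.12% and 0.361%). Quinacrine had 5 at 12 h (0.911%) and the combination 6 (1.1%), and neither had any at 6 h (0.636% and 0.378%). Members at least 2-fold below untreated were XAF1 (-1.47) and SAMD9 (-1.01) at combination 6 h, against 7.37% of the tested genes, and IRF7 at erlotinib 12 h (3.06 against 4.06; 0.859%).

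**Figure D1:**
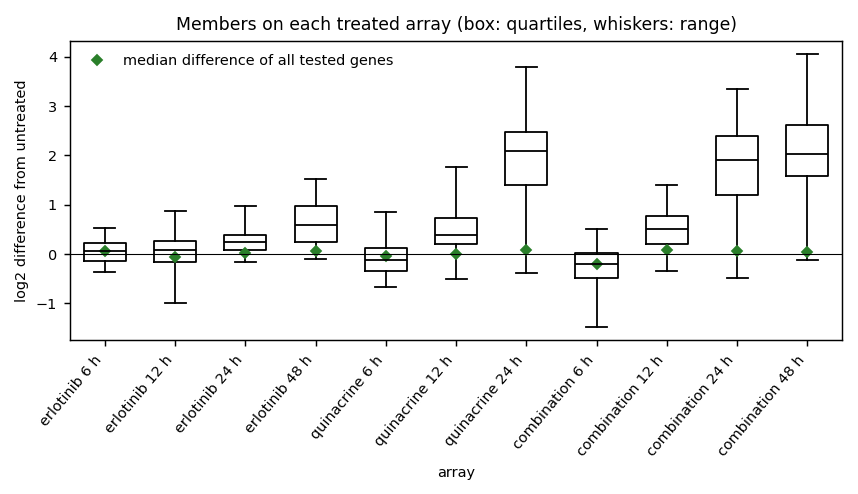
Log2 difference from the untreated array for the 42 members on each treated array (box, quartiles; whiskers, lowest and highest member), with the median difference of all tested genes as a diamond. The boxes of quinacrine 24 h and combination 24 and 48 h lie above 1, while the diamonds stay near 0 on every array.

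For 38 of the 42 members the quinacrine 24 h, combination 24 h and combination 48 h arrays all lay above the other 9 arrays. That separation held for 6.96% of the tested genes and 3.72% of all named genes. The 4 exceptions were IFITM2, IFITM3, TRIM22 and LGALS3BP. The gap between the lowest of these 3 arrays and the highest of the other 9 was widest for SAMD9L (2.50 log2), MX1 (2.03) and MX2 (2.02), and narrowest for IFI35 (0.04), BST2 (0.09) and IFIT2 (0.10), where erlotinib 48 h or quinacrine 12 h came closest. These 3 arrays were set apart with the result known, so the count is a description. It was 38 without the combination 6 h array, 36 after cyclic loess and 37 after median centring of the arrays. On those 3 arrays the summed epithelial markers were 53.02 to 54.24 and the summed markers of other cells 20.89 to 21.74, against 50.83 to 55.0 and 21.01 to 23.83 on the other 9.

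**Figure D2:**
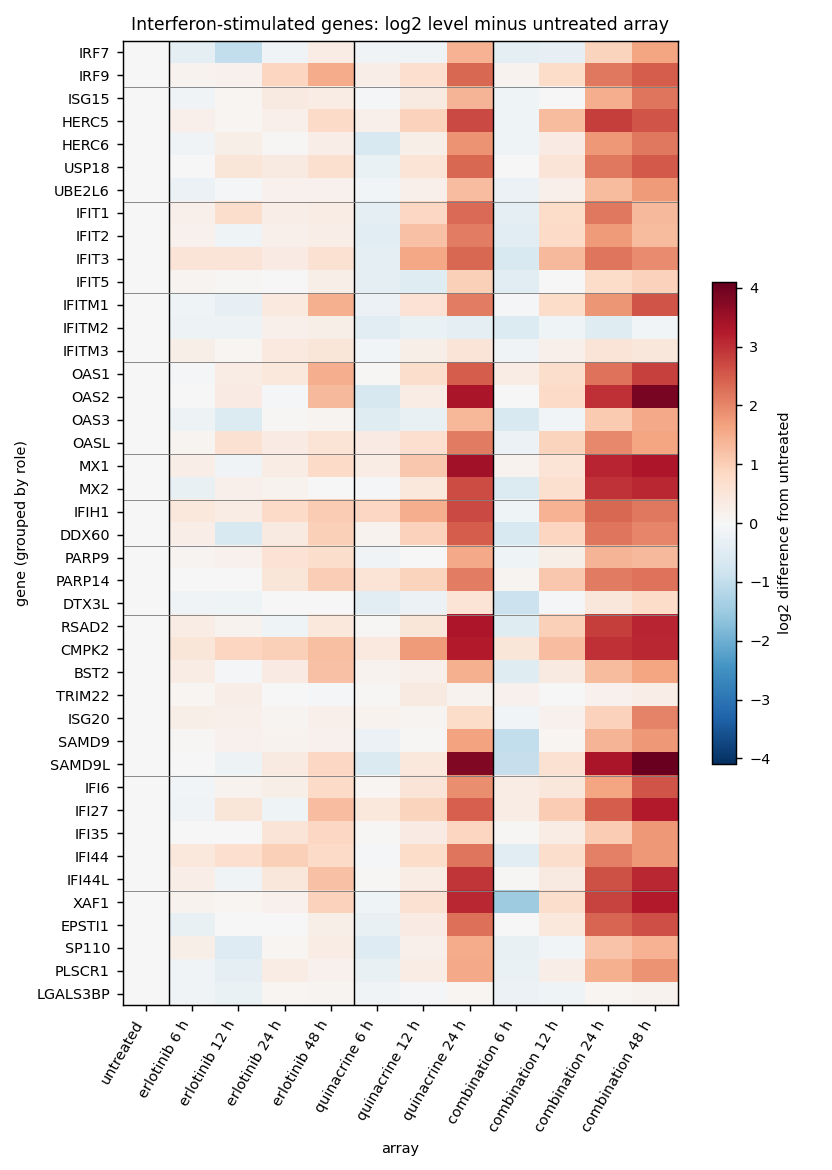
Log2 level minus the untreated level for each member (rows, grouped by role) on each array (columns, by treatment and time). Red is higher and blue lower than untreated; red fills most rows of the quinacrine 24 h and combination 24 and 48 h columns, while IFITM2 is blue there and TRIM22 and LGALS3BP are close to white.

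Against erlotinib at the same time, the combination gave medians over the 42 members of -0.27, 0.43, 1.47 and 1.31 log2 at 6, 12, 24 and 48 h. The tested genes had medians of -0.27, 0.14, 0.04 and -0.02, so at 6 h the members moved with the array as a whole. Members at least 2-fold above erlotinib numbered 0, 5, 32 and 31, against 0.223%, 2.73%, 1.7% and 1.99% of the tested genes. At 6 h 3 members were at least 2-fold below erlotinib, XAF1 (-1.60), IFIT3 (-1.14) and SAMD9 (-1.05), against 9.3% of the tested genes. The 5 at 12 h were DDX60, HERC5, IFIH1, PARP14 and IFITM1, and after cyclic loess or median centring of the arrays 1 and 2 members met this. Quinacrine alone gave medians of -0.14, 0.36 and 1.68 at 6, 12 and 24 h, and 0, 5 and 33 members 2-fold above erlotinib, against 0.447%, 2.13% and 1.82% of the tested genes.

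At matched times the members' median difference between the combination and quinacrine alone was small. Combination minus quinacrine had medians of -0.12, 0.04 and -0.18 log2 at 6, 12 and 24 h, and no member was 2-fold higher at any of these times (0.189%, 0.12% and 0.0344% of the tested genes were). On the 6 h combination array, which stood apart, 2 members were at least 2-fold lower than with quinacrine, XAF1 (-1.30) and IFIH1 (-1.03), against 4.33% of the tested genes. At 24 h the members ran from -0.52 for IRF7 to 0.27 for MX2, and 10 of 42 were higher with the combination. In limma with treatment and time as factors, no member passed for combination versus quinacrine (0% of the tested genes rose), and 0 of the 25 tested members had an unadjusted p under 0.05 in favour of the combination (0.344% of the tested genes did). Without the combination 6 h array the median over the members moved from 0.007 to 0.221, and again none passed. The intervals were wide: the 95% interval of the log2 difference was -0.58 to 0.48 for IRF9, -0.60 to 0.51 for PARP14 and -1.08 to 1.94 for OAS2. There was no quinacrine array at 48 h, so the comparison ends at 24 h.

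To test the change with time across all genes, a slope per doubling of time was fitted with limma, 1 for the 4 erlotinib arrays and 1 shared by the 7 arrays with quinacrine. In the arrays with quinacrine the slope was above 0 for 42 of 42 members, with a median of 0.84 log2 units per doubling against 0.08 over the tested genes. Of the 25 tested members 23 rose (limma adjusted p under 0.05), against 12.4% of the tested genes that rose, and none fell (1.12% of the tested genes did). Of these 25, 10 were below 5 untreated and passed the filter through the treated arrays. The members were also chosen with earlier results of these data known, so the share is a description. IFITM2 and LGALS3BP did not pass. Fitted over all 22395 named genes, 38 of the 42 members rose, against 2.56% of those genes, and the 4 that did not were IFITM2, IFITM3, TRIM22 and LGALS3BP. Among genes with at least 5 on the untreated array, 13 of the 15 members rose, where 13.3% of the genes tested were called in either direction. The background itself leaned one way: 719 tested genes rose and 65 fell (91.7% higher), but 366 and 238 did after cyclic loess (60.6%), 360 and 450 after median centring (44.4%), and 65 and 14 without the combination 6 h array (82.3%). The median slope of the tested genes moved from 0.075 to -0.001 and -0.028 with these scalings, while 22 of the 25 members rose under each of them. Without the combination 6 h array 15 of 25 members rose, against 1.12% of the tested genes, and with time in hours in place of log2 hours 14 did.

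**Figure D3:**
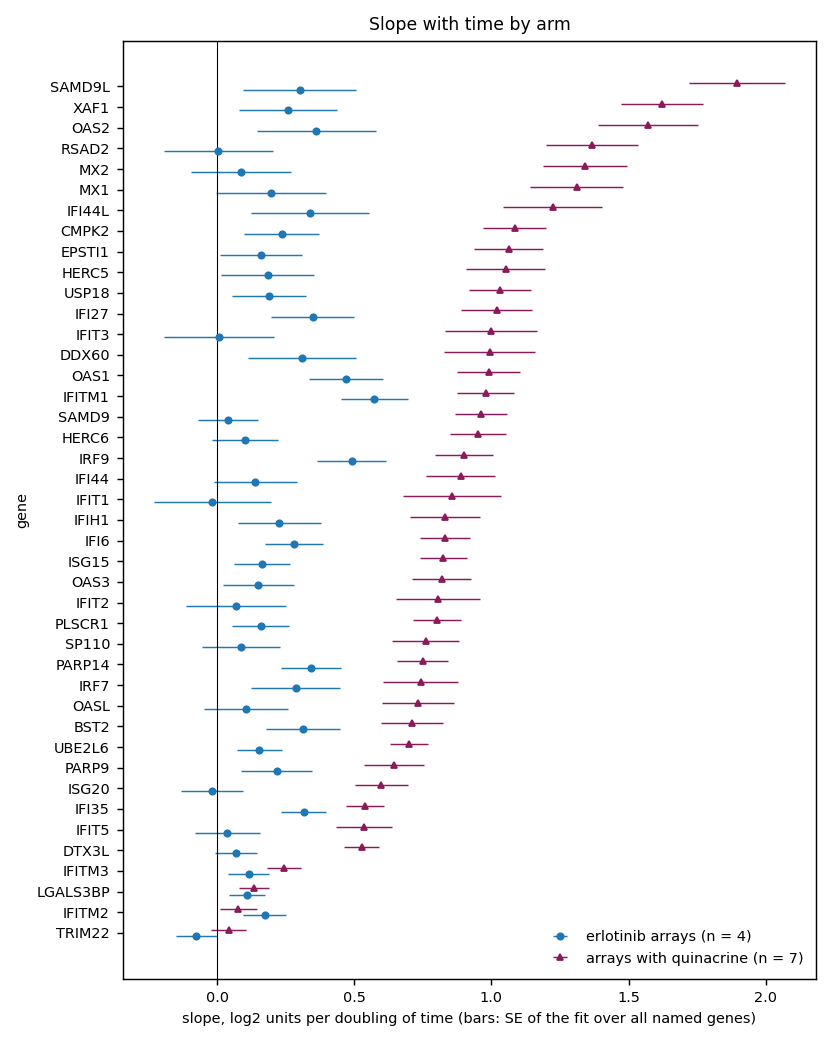
Slope in log2 units per doubling of time for each member in the erlotinib arrays (circles, n = 4) and in the arrays with quinacrine (triangles, n = 7), with the SE of the limma fit over all named genes as bars. The triangles lie to the right of the circles for every member but IFITM2, and the gap is widest for SAMD9L.

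With erlotinib alone the slopes were smaller. Their median was 0.17 log2 units per doubling against 0.005 over the tested genes, and 39 of 42 members had a slope above 0. No member passed in limma, where 0.0172% of the tested genes rose; 7 of 25 members had an unadjusted p under 0.05, against 4.69% of the tested genes. The difference between the 2 slopes had a median of 0.66 against 0.07, and 41 of 42 members had the steeper slope in the arrays with quinacrine. No gene of any kind passed for that difference in limma (0% of the tested genes; smallest adjusted p of a member = 0.0649, for SAMD9), although 22 of 25 members had an unadjusted p under 0.05 against 14.2% of the tested genes. It is therefore not shown for single members that the slopes differed.

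In the lists of levels that follow, values run in order of time, 6, 12, 24 and 48 h for erlotinib and the combination and 6, 12 and 24 h for quinacrine. Among the transcription factors, IRF9 is the DNA-binding partner of the STAT proteins in ISGF3. Its log2 level was 4.48 untreated, 4.61, 4.65, 5.36 and 6.01 with erlotinib, 4.75, 5.18 and 6.83 with quinacrine, and 4.61, 5.23, 6.64 and 6.95 with the combination. The late arrays with quinacrine were highest, erlotinib 48 h came next, and the 6 h arrays were all near untreated. Its slope was 0.90 (SE 0.10, limma adjusted p = 0.00125) with quinacrine and 0.49 with erlotinib. IRF7, the factor that amplifies the transcription of interferon genes, had a log2 level of 4.06 untreated, 3.70, 3.06, 3.92 and 4.37 with erlotinib, 3.93, 3.91 and 5.49 with quinacrine, and 3.67, 3.72, 4.97 and 5.68 with the combination. Only the 3 late arrays exceeded 4.37, and erlotinib 12 h was the lowest. The slope of IRF7 was 0.74 (SE 0.14, limma adjusted p = 0.0262 in the fit of all named genes). IRF9 had 1 other row, which stayed at 1.08 to 2.48.

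The ISG15 system conjugates and removes a small ubiquitin-like protein. ISG15 itself had a log2 level of 4.12 untreated, 3.98, 4.19, 4.50 and 4.42 with erlotinib, 4.03, 4.49 and 5.52 with quinacrine, and 3.94, 4.15, 5.60 and 6.31 with the combination. Erlotinib arrays stayed close to untreated, and the 3 late arrays with quinacrine did not overlap with any other. Its slope was 0.82 (SE 0.09, limma adjusted p = 0.00313 in the fit of all named genes). USP18, the protease that removes ISG15 and also restrains the type I receptor, read 7.88 untreated, 7.88, 8.37, 8.26 and 8.55 with erlotinib, 7.61, 8.43 and 10.25 with quinacrine, and 7.89, 8.40, 10.03 and 10.40 with the combination (log2 level). Relative to untreated it was 5.17-fold at quinacrine 24 h and 5.74-fold at combination 48 h, and its slope was 1.03 (SE 0.11, limma adjusted p = 0.00101). HERC6, a member of the ligase family that attaches ISG15, read 6.45 untreated, 6.32, 6.68, 6.51 and 6.72 with erlotinib, 5.84, 6.69 and 8.30 with quinacrine, and 6.28, 6.79, 8.23 and 8.60 with the combination (log2 level). Its erlotinib arrays spanned 6.32 to 6.72 around an untreated 6.45, below all 3 late arrays, and the slope was 0.95 (SE 0.10, limma adjusted p = 0.000987). HERC5, the main human ISG15 ligase, and UBE2L6, its conjugating enzyme, began at 3.72 and 3.58 and reached 6.55 and 5.34 at their highest, with slopes of 1.05 and 0.70.

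The IFIT proteins bind foreign RNA and block its translation, and their genes lie together on chromosome 10 in the GRCh38.p14 annotation, which is used for all neighbours named here. IFIT3 had a log2 level of 5.46 untreated, 5.98, 5.98, 5.79 and 6.07 with erlotinib, 5.09, 7.06 and 7.83 with quinacrine, and 4.84, 6.78, 7.64 and 7.39 with the combination. It was already above every erlotinib array at 12 h with quinacrine and with the combination, and it was lower than untreated at 6 h on both. IFIT1 read 4.81 untreated, 5.01, 5.54, 5.07 and 5.11 with erlotinib, 4.43, 5.65 and 7.13 with quinacrine, and 4.42, 5.55, 6.96 and 6.15 with the combination (log2 level). IFIT1 peaked at 24 h, and its combination 48 h array was 0.81 below combination 24 h. IFIT5, with 5.64 untreated, 5.74, 5.69, 5.65 and 5.88 with erlotinib, 5.28, 5.14 and 6.62 with quinacrine, and 5.22, 5.63, 6.39 and 6.57 with the combination (log2 level), separated only on the 3 late arrays. Slopes were 1.00 (SE 0.17, limma adjusted p = 0.00836) for IFIT3, 0.86 (SE 0.18, limma adjusted p = 0.0169) for IFIT1 and 0.54 (SE 0.10, limma adjusted p = 0.0106) for IFIT5. All 3 lost the call without the combination 6 h array. IFIT2 began at 3.71, reached 4.92 at quinacrine 12 h and 5.80 at quinacrine 24 h, and stood at 5.02 at combination 48 h.

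The IFITM proteins sit in membranes and hinder the entry of enveloped viruses; their 3 genes are neighbours on chromosome 11 but did not share a pattern. Their transcripts are alike, and how well the probes separate them was not tested. IFITM1 had a log2 level of 5.91 untreated, 5.72, 5.56, 6.31 and 7.38 with erlotinib, 5.67, 6.50 and 8.01 with quinacrine, and 5.85, 6.65, 7.73 and 8.50 with the combination. It was also high at erlotinib 48 h, 1.47 above untreated, and had the steepest erlotinib slope of the members, 0.57 (SE 0.12, limma adjusted p = 0.136), with 0.98 (SE 0.10, limma adjusted p = 0.000987) in the arrays with quinacrine. IFITM2 read 6.85 untreated, 6.65, 6.65, 7.06 and 7.09 with erlotinib, 6.43, 6.58 and 6.47 with quinacrine, and 6.29, 6.68, 6.36 and 6.73 with the combination (log2 level). All 7 arrays with quinacrine were below untreated, and the 2 highest arrays were erlotinib 24 and 48 h. Its slope of 0.08 (SE 0.06, limma adjusted p = 0.409) did not pass. IFITM3, with 4.81 untreated, 5.04, 4.88, 5.22 and 5.31 with erlotinib, 4.69, 5.06 and 5.33 with quinacrine, and 4.66, 5.02, 5.33 and 5.27 with the combination (log2 level), reached 5.33 on the late arrays and 5.31 at erlotinib 48 h, so the groups overlapped. Its slope was 0.24 (SE 0.06, limma adjusted p = 0.0231), a call lost when all named genes were fitted (adjusted p = 0.0649 in limma), under either rescaling and without the combination 6 h array.

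The OAS enzymes make short oligoadenylates on sensing double-stranded RNA; OAS1, OAS3 and OAS2 are neighbours on chromosome 12. OAS2 had a log2 level of 4.49 untreated, 4.47, 4.83, 4.42 and 5.81 with erlotinib, 3.82, 4.80 and 7.85 with quinacrine, and 4.48, 5.28, 7.48 and 8.39 with the combination. Its combination 48 h level was 14.9-fold and its quinacrine 24 h level 10.3-fold over untreated, and among erlotinib arrays only the 48 h one exceeded 5. OAS3 read 7.46 untreated, 7.26, 6.90, 7.51 and 7.56 with erlotinib, 6.97, 7.16 and 8.83 with quinacrine, and 6.84, 7.34, 8.54 and 9.02 with the combination (log2 level). OAS3 was below untreated on all 6 arrays at 6 and 12 h and above it on all 3 late arrays with quinacrine. OASL, a relative without the enzyme activity that enhances RIG-I signalling, read 4.50 untreated, 4.62, 5.11, 4.84 and 5.06 with erlotinib, 4.84, 5.20 and 6.63 with quinacrine, and 4.25, 5.41, 6.48 and 6.12 with the combination (log2 level) and peaked at 24 h. Slopes were 1.57 (SE 0.18, limma adjusted p = 0.00144) for OAS2, 0.82 (SE 0.10, limma adjusted p = 0.00226) for OAS3 and 0.73 (SE 0.13, limma adjusted p = 0.009) for OASL, and OASL was not called without the combination 6 h array. OAS1 began at 3.91 and had a slope of 0.99; its erlotinib 48 h level of 5.40 was higher than all arrays but the 3 late ones.

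The MX proteins are dynamin-like GTPases that trap viral nucleocapsids. MX1 had a log2 level of 3.09 untreated, 3.37, 2.94, 3.40 and 3.87 with erlotinib, 3.39, 4.19 and 6.54 with quinacrine, and 3.25, 3.64, 6.22 and 6.41 with the combination. The 3 late arrays exceeded 6.2 and no other array exceeded 4.19, the quinacrine 12 h value; the slope was 1.31 (SE 0.17, limma adjusted p = 0.00674 in the fit of all named genes). MX2, at 1.76 untreated and 1.19 to 2.43 on the other 8 early or erlotinib arrays, read 4.45 at quinacrine 24 h, 4.72 at combination 24 h and 4.84 at combination 48 h.

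**Figure D4:**
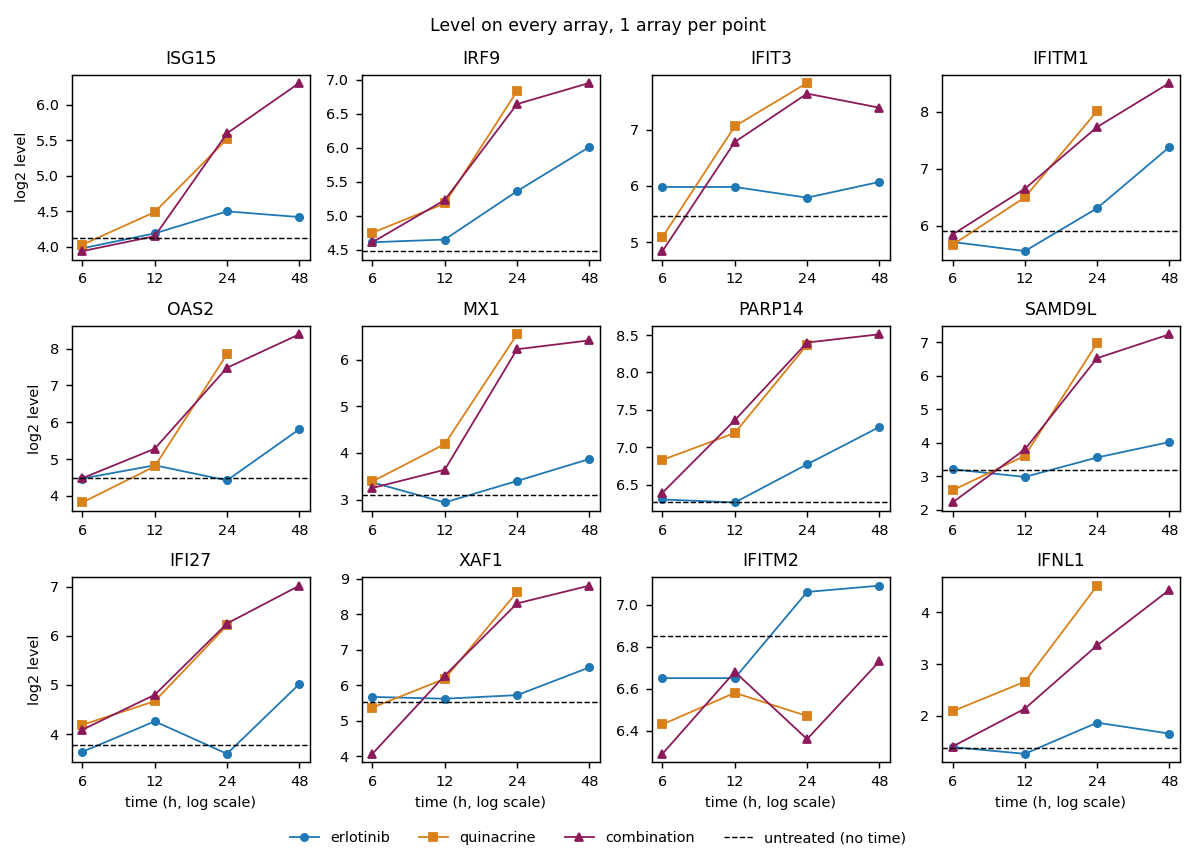
Log2 level against time (log scale, h) for 11 members and IFNL1, 1 array per point, with erlotinib, quinacrine and the combination as lines and the untreated array as a dashed line. In the panels of 10 members the quinacrine and combination lines climb between 12 and 24 h, and in the IFITM2 panel they stay below untreated.

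The RNA helicases include IFIH1, also called MDA5, a sensor of long double-stranded RNA. IFIH1 had a log2 level of 4.06 untreated, 4.50, 4.36, 4.83 and 5.10 with erlotinib, 4.92, 5.54 and 6.78 with quinacrine, and 3.89, 5.47, 6.43 and 6.21 with the combination. It differed early, quinacrine 6 h standing 0.86 and quinacrine 12 h 1.48 above untreated, while combination 6 h was at 3.89, under the untreated 4.06. DDX60, a helicase reported to assist RNA sensing, read 4.93 untreated, 5.21, 4.31, 5.29 and 5.91 with erlotinib, 5.07, 5.87 and 7.41 with quinacrine, and 4.29, 5.82, 7.11 and 6.94 with the combination (log2 level). Erlotinib 12 h and combination 6 h were its lowest arrays, and both late combination arrays were under quinacrine 24 h. The slopes were 0.83 (SE 0.12, limma adjusted p = 0.00527) and 0.99 (SE 0.16, limma adjusted p = 0.0082), and neither was called without the combination 6 h array.

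PARP9, PARP14 and DTX3L lie together on chromosome 3, and the products of PARP9 and DTX3L form a complex of ADP-ribosylation and ubiquitin ligation. PARP14 had a log2 level of 6.27 untreated, 6.30, 6.26, 6.77 and 7.27 with erlotinib, 6.83, 7.19 and 8.37 with quinacrine, and 6.39, 7.36, 8.40 and 8.51 with the combination. Every array with quinacrine was above untreated, and the 12 h pair (7.19 and 7.36) lay near erlotinib 48 h (7.27). DTX3L read 8.20 untreated, 8.04, 8.02, 8.18 and 8.22 with erlotinib, 7.75, 7.97 and 8.76 with quinacrine, and 7.33, 8.12, 8.65 and 8.94 with the combination (log2 level). Its combination 6 h array was the lowest, at 7.33 against 8.20 untreated, and the late arrays exceeded untreated by less than 1. PARP9, with 4.95 untreated, 5.07, 5.13, 5.54 and 5.66 with erlotinib, 4.79, 4.97 and 6.49 with quinacrine, and 4.78, 5.19, 6.33 and 6.28 with the combination (log2 level) did not exceed 5.19 on the arrays with quinacrine at 6 and 12 h and passed 6.2 on the late ones. Slopes were 0.75 (SE 0.09, limma adjusted p = 0.00153) for PARP14, 0.53 (SE 0.06, limma adjusted p = 0.00114) for DTX3L and 0.65 (SE 0.10, limma adjusted p = 0.00789) for PARP9.

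Of the other antiviral effectors, SAMD9L and SAMD9, neighbours on chromosome 7, have products that restrain translation and poxvirus replication. SAMD9L began at 3.18 and had the largest rise of the set, to 6.97 at quinacrine 24 h, 6.52 at combination 24 h and 7.23 at combination 48 h, with a slope of 1.90 (SE 0.17, limma adjusted p = 0.00218 in the fit of all named genes). SAMD9 read 6.73 untreated, 6.77, 6.91, 6.89 and 6.91 with erlotinib, 6.48, 6.79 and 8.39 with quinacrine, and 5.72, 6.82, 8.11 and 8.51 with the combination (log2 level). Erlotinib left it between 6.77 and 6.91, and combination 6 h was its lowest array; the slope was 0.96 (SE 0.09, limma adjusted p = 0.000742). BST2, the tetherin that holds budding virions on the cell, read 5.24 untreated, 5.54, 5.17, 5.58 and 6.45 with erlotinib, 5.40, 5.44 and 6.71 with quinacrine, and 4.73, 5.62, 6.54 and 6.87 with the combination (log2 level). Erlotinib 48 h (6.45) came within 0.09 of the lowest late array with quinacrine, and the slope was 0.71 (SE 0.11, limma adjusted p = 0.00617), a call lost without the combination 6 h array. RSAD2 (viperin) and CMPK2, adjoining genes on chromosome 2 that supply a chain-terminating nucleotide and its precursor, began at 2.81 and 3.55. RSAD2 reached 6.12 and CMPK2 6.79 at quinacrine 24 h, with slopes of 1.37 and 1.08. CMPK2 was also 1.24 above untreated at erlotinib 48 h, where RSAD2 read 3.24. ISG20, an exonuclease, stayed under 1.8 except on the late arrays (2.24, 2.45 and 3.54), and TRIM22 stayed at 1.12 to 1.58 throughout.

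The genes named IFI for interferon induction encode proteins of different kinds. IFI6, a mitochondrial protein that protects cells from death, had a log2 level of 8.51 untreated, 8.41, 8.65, 8.76 and 9.31 with erlotinib, 8.58, 9.03 and 10.41 with quinacrine, and 8.81, 8.99, 10.14 and 11.08 with the combination. Its order within the combination was that of time, and combination 48 h was 5.94-fold over untreated. IFI44L read 4.19 untreated, 4.46, 4.03, 4.64 and 5.39 with erlotinib, 4.23, 4.48 and 7.13 with quinacrine, and 4.24, 4.57, 6.81 and 7.27 with the combination (log2 level). IFI44, its neighbour on chromosome 1, read 4.62 untreated, 5.04, 5.31, 5.60 and 5.41 with erlotinib, 4.55, 5.37 and 6.80 with quinacrine, and 4.20, 5.34, 6.70 and 6.39 with the combination (log2 level). IFI44 was above untreated on all 4 erlotinib arrays and peaked at 24 h, while IFI44L was highest at combination 48 h. IFI35 read 5.36 untreated, 5.33, 5.34, 5.89 and 6.20 with erlotinib, 5.42, 5.71 and 6.24 with quinacrine, and 5.41, 5.67, 6.41 and 7.13 with the combination (log2 level), and its erlotinib 48 h array (6.20) was 0.04 under quinacrine 24 h. Slopes were 0.83 (SE 0.09, limma adjusted p = 0.00101) for IFI6, 1.22 (SE 0.18, limma adjusted p = 0.00456) for IFI44L, 0.89 (SE 0.12, limma adjusted p = 0.00368) for IFI44 and 0.54 (SE 0.06, limma adjusted p = 0.00153) for IFI35. IFI27, a mitochondrial protein often used to score interferon responses in blood, had a log2 level of 3.77 untreated, 3.64, 4.26, 3.60 and 5.02 with erlotinib, 4.19, 4.67 and 6.21 with quinacrine, and 4.09, 4.80, 6.25 and 7.02 with the combination. It was 1.25 above untreated at erlotinib 48 h and lower than untreated at erlotinib 24 h, and its slope was 1.02 (SE 0.13, limma adjusted p = 0.00564 in the fit of all named genes).

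Of the remaining members, XAF1, an antagonist of the inhibitor of apoptosis XIAP, had the steepest slope of those tested. Its log2 level was 5.54 untreated, 5.67, 5.62, 5.72 and 6.50 with erlotinib, 5.37, 6.18 and 8.62 with quinacrine, and 4.07, 6.27, 8.30 and 8.80 with the combination. Combination 6 h differed from untreated by -1.47, the lowest value of any member on that array, and combination 48 h was 9.58-fold above; the slope was 1.62 (SE 0.15, limma adjusted p = 0.000712). Without the combination 6 h array XAF1 was still called. EPSTI1, SP110 and PLSCR1 began at 1.67, 4.59 and 4.02 and had slopes of 1.06, 0.76 and 0.80. LGALS3BP had a log2 level of 9.67 untreated, 9.54, 9.41, 9.76 and 9.79 with erlotinib, 9.54, 9.63 and 9.75 with quinacrine, and 9.43, 9.50, 9.75 and 9.83 with the combination, a range of 9.41 to 9.83 in which early and late arrays overlapped, and its slope of 0.13 (SE 0.05, limma adjusted p = 0.0841) did not pass.

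Step by step, the largest median difference of the members came between 12 and 24 h. With quinacrine the median step of the members was 0.47 log2 from 6 to 12 h and 1.48 from 12 to 24 h, and 5 and then 33 members gained at least 1, against 0.687% and 0.756% of the tested genes. With the combination the median steps were 0.58 and 1.26, and 13 and then 30 members gained at least 1, against 7.2% and 0.378% of the tested genes. The first of these steps starts from the combination 6 h array, which stood apart. Some members had the larger step from 6 to 12 h. IFIT3 gained 1.97 and then 0.77 with quinacrine, and 1.94 and then 0.86 with the combination. IFIT2, IFITM2 and IFITM3 had the larger first step in both arms as well. TRIM22 had it with quinacrine only, and IFIH1, DDX60, DTX3L, OASL and XAF1 with the combination only. Between 24 and 48 h with the combination the members parted. In that step 32 of 42 were higher at 48 h and 10 were lower, with a median of 0.30 against -0.02 over the tested genes, of which 53% were lower. The 10 lower ones were IFIT1 (-0.81), IFIT2 (-0.43), OASL (-0.36), IFI44 (-0.31), HERC5 (-0.26), IFIT3 (-0.25), IFIH1 (-0.22), DDX60 (-0.17), IFITM3 (-0.06) and PARP9 (-0.05). They include 3 of the 4 IFIT genes. The largest positive differences were those of ISG20 (1.09), IFI6 (0.94), OAS2 (0.91), IFITM1 (0.77) and IFI27 (0.77). Each side kept its members after cyclic loess and after median centring, with 32 higher and 10 lower. With 1 array per time this step has no test. With erlotinib 37 of 42 were higher at 48 h than at 24 h, but 34 and 29 were under the same rescalings, so several of those directions depended on the scaling.

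Averaged over time, the treatments differed less clearly, and the fit held the 6 h arrays with the late ones. For combination versus erlotinib, with treatment and time as factors in limma, 40 of 42 members were higher, with a median of 0.75 log2 against -0.03 over the tested genes. Only PARP14 passed, against 1.43% of the tested genes that rose, with a log2 difference of 1.02 over 4 time points in each arm (SE 0.22, limma adjusted p = 0.0436). Of the 25 tested members 10 were higher with an unadjusted p under 0.05, against 8.21% of the tested genes. PARP14 lost the call in 13 of 23 alternatives, at log2 differences of 0.82 to 1.02, among them the fit of all named genes and the fits without erlotinib 12, 24 or 48 h, without any 1 of the quinacrine arrays, or without combination 12, 24 or 48 h. Under cyclic loess and under median centring 5 members passed each time, where 3.78% and 3.83% of the tested genes rose. Without the combination 6 h array 2 did, with a median of 0.97, where 3.04% rose. Without the erlotinib 6 h array 10 did, where 5.53% of the tested genes were called in either direction. Of the tested genes called, 39.2% were higher, against 45.4% after loess, 50.8% after centring and 60.2% without the combination 6 h array. IFITM1 differed by 0.94 (SE 0.24, limma adjusted p = 0.074) and IFI6 by 0.97 (SE 0.27, limma adjusted p = 0.0904). IFITM2 went the other way, at -0.35 (SE 0.12, limma adjusted p = 0.165). No member had all 4 combination arrays above all 4 erlotinib arrays, a separation seen for 4% of the tested genes.

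For quinacrine versus erlotinib 40 of 42 members were again higher, with a median of 0.76 against 0.01, and none passed in limma, where 0.515% of the tested genes rose. The smallest adjusted p was 0.0728, for PARP14 at 1.06 (SE 0.24, limma), and 7 of 25 had an unadjusted p under 0.05, against 8.61% of the tested genes. Both comparisons share the erlotinib arrays. In limma none of the 25 tested members passed against the single untreated array, which was assumed to vary like the treated groups: the medians were 0.29 for erlotinib, 0.86 for quinacrine and 1.05 for the combination (1.51 without its 6 h array), and 36, 39 and 40 members were higher. In those 3 comparisons 0%, 0% and 0.0172% of the tested genes rose in limma, and no tested member had an unadjusted p under 0.05, against 1.55%, 5.22% and 5.15% of the tested genes.

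The other genes of the pathway, on lists drawn up by function, were read in the same fits. Of 9 interferon genes none reached a mean of 5, and IFNB1 stayed at 0.72 to 1.61. IFNL1, a type III interferon, had a log2 level of 1.39 untreated, 1.40, 1.27, 1.87 and 1.66 with erlotinib, 2.09, 2.66 and 4.51 with quinacrine, and 1.41, 2.14, 3.36 and 4.43 with the combination. It was higher on quinacrine 24 h and combination 48 h than on any other array, and its slope was 1.08 (SE 0.10, limma adjusted p = 0.00218 in the fit of all named genes) in the arrays with quinacrine and 0.14 with erlotinib. IFNL1 was singled out after its values were seen. Of the receptors and kinases 5 were tested, and none rose or fell with time in the arrays with quinacrine. IFNGR2, a chain of the interferon gamma receptor, was higher with the combination than with erlotinib by 0.89 (SE 0.09, limma adjusted p = 0.00544) and with quinacrine by 0.89 (SE 0.10, limma adjusted p = 0.00785). Its log2 level was 5.38 untreated, 5.46, 5.15, 5.06 and 5.24 with erlotinib, 6.36, 5.94 and 6.06 with quinacrine, and 6.44, 5.91, 6.04 and 6.07 with the combination, so it was high from 6 h on. The IFNGR2 call was lost in 2 of 23 alternatives for the combination (without combination 24 h, and the arrays of both groups alone) and in 4 of 23 for quinacrine (without erlotinib 24 h or any 1 quinacrine array), with limma adjusted p up to 0.0804 and 0.0995. IFNAR1 read 4.14 on combination 6 h and 5.91 to 6.48 on the other arrays.

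IRF1, a factor of the interferon and NF-kappaB responses that is no member, was likewise high at every time with quinacrine. Its log2 level was 4.69 untreated, 4.95, 4.61, 4.73 and 5.10 with erlotinib, 5.65, 5.62 and 6.22 with quinacrine, and 5.56, 5.60, 6.05 and 6.09 with the combination. All 7 arrays with quinacrine lay above all erlotinib arrays and the untreated one, and the difference was 0.98 for combination versus erlotinib (SE 0.13, limma adjusted p = 0.0186) and 1.07 for quinacrine versus erlotinib (SE 0.15, limma adjusted p = 0.0198). The IRF1 call was lost in 8 of 22 alternatives for the combination (limma adjusted p up to 0.114) and in 7 of 22 for quinacrine (up to 0.144), among them the fits of both groups alone and most fits without 1 array of either group, with differences of 0.85 to 1.10 and 0.92 to 1.22 over all alternatives. Its slope with time, 0.23 (SE 0.07, limma adjusted p = 0.0573), did not pass. At 6 h IRF1 read 5.65 and 5.56 with quinacrine and the combination against 4.69 untreated, while the members had median differences of -0.11 and -0.21 from untreated. Of 7 tested genes of nucleic acid sensing, RIGI, IFI16 and STING1 rose with time in the arrays with quinacrine and 4 did not pass, against 12.4% of all tested genes that rose. With erlotinib STING1 read 5.37, 5.52, 5.74 and 6.37, and no array with quinacrine exceeded 6.09. IFI16 read 8.29, 8.41, 8.70 and 9.09 with erlotinib, against 9.32 at quinacrine 24 h and 9.08 and 9.36 at combination 24 and 48 h. None of the 7 passed for the erlotinib slope, where 0.0172% of the tested genes rose. RIGI, the sensor of short double-stranded RNA, read 7.14 untreated, 7.56, 7.26, 7.21 and 7.60 with erlotinib, 7.25, 7.60 and 9.08 with quinacrine, and 7.36, 7.89, 8.91 and 8.76 with the combination (log2 level), with a slope of 0.63 (SE 0.11, limma adjusted p = 0.0102). For quinacrine versus erlotinib IRF3 was higher by 0.71 (limma adjusted p = 0.0474) and the other 6 did not pass, against 0.515% of the tested genes. The IRF3 call was lost in 14 of 23 alternatives, with limma adjusted p up to 0.292. Of 8 further interferon-induced genes 6 rose with time in the arrays with quinacrine (ADAR, EIF2AK2, IFI30, PML, TAP1 and ZC3HAV1). IRF1 and NMI did not pass for that slope, against the same 12.4%. The IFI30 call (limma adjusted p = 0.0449) was lost in 16 of 22 alternatives, with adjusted p up to 0.318. Of 3 genes of restraint SOCS3 and PTPN2 rose with time in the arrays with quinacrine and PIAS1 did not pass, against the same 12.4%. PTPN2 read 5.51 untreated, 4.66, 5.34 and 5.12 with quinacrine, and 4.39, 5.03, 5.24 and 5.31 with the combination (log2 level). It thus stayed below untreated on every array with quinacrine. The SOCS3 call was lost in 14 of 21 alternatives and the PTPN2 call in 14 of 22, with limma adjusted p up to 0.40 and 0.34. RIGI, STING1, ZC3HAV1, PML, TAP1, ADAR, IFI30, SOCS3 and PTPN2 were not called without the combination 6 h array, while EIF2AK2 and IFI16 were.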

How the data were processed

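RNA from 12 samples of NCI-H1975 cells was read on Affymetrix Human Gene 2.1 ST arrays, 1 array per treatment and time. The deposited values are log2 levels made by the authors with RMA in Affymetrix Expression Console 1.30, per the submitters' processing notes, and they were used without further scaling. RMA sets the probe distributions of the arrays equal, so a shift shared by all genes would not appear in them. Genes were named from the platform annotation; of 53617 rows 23871 had 1 symbol and 1842 several, which were not used. A gene was read from its row with the highest mean.

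Tests used limma 3.58.1 in R 4.3.3 on the 5820 genes with a mean log2 level of at least 5, with Benjamini-Hochberg adjustment over all of them and a threshold of 0.05. Treated groups were compared with treatment and time as factors in the 11 treated arrays, so the residual is the departure from additive effects of treatment and time. Comparisons with the single untreated array used group means over 12 arrays. Slopes were fitted on log2 hours, with 1 slope for erlotinib and 1 for the arrays with quinacrine. A 2-fold count is of differences of at least 1 on the log2 scale and has no test. The number of arrays limits the precision of every value.

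The members and lists were chosen with earlier results of these data known. Values on every array are given for members past the threshold, for the 2 members of each role that differed most between combination and erlotinib among those with a mean of at least 5, and for ISG15, IRF9, IRF7, MX1, IFI27 and IRF1; others are given by range and counts. The fit was tested on simulated data. Alternatives varied the filter, the rows, the scaling (cyclic loess, median centring), array weights, an intensity trend, the times used and each array.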

Additional observations from a re-analysis of the deposited data

Results flagged for a closer look

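In groups of 4 arrays, 84 groups of member levels were examined for 1 array far from the other 3, and 2 were found. Chance gives about 1 in 20 groups of replicates. The 4 arrays of a group are 4 times and not replicates, so a change with time can also be found this way. The 2 arrays found were the first and the last time of the erlotinib arm. SAMD9 read 6.77 (log2 level) on the erlotinib 6 h array and 6.89 to 6.91 on the other 3 erlotinib arrays. XAF1 read 6.50 on the erlotinib 48 h array and 5.62 to 5.72 on the other 3.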

How the results depend on the processing

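Each array was left out in turn and the settings below were changed 1 at a time. In limma, the count of members past the threshold for combination versus erlotinib, 1 as reported, was 0 with a mean of at least 4, with no filter, with the 6, 12 and 24 h arrays and with the arrays of both groups alone; 5 after cyclic loess, 5 after median centring, 7 with array weights, 3 with an intensity trend, 7 with slopes in place of the time factor, and 0 to 10 when 1 array was left out. For quinacrine versus erlotinib, 0 as reported, it was 2, 3, 8, 1 and 9 under loess, centring, weights, trend and slopes, and 0 to 6 when 1 array was left out. For combination versus untreated, 0 as reported, it was 7 with array weights. The median for combination versus quinacrine, 0.007, was 0.131 with array weights, 0.221 without combination 6 h and erlotinib 12 h, -0.155 with slopes, and -0.114 to 0.237 when 1 array was left out.

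For the slope in the arrays with quinacrine, 23 members as reported, the count was 38 with no filter, which tests more genes, 14 with hours in place of log2 hours, 13 among genes of at least 5 on the untreated array (a filter chosen after seeing the data), and 15 (without combination 6 h) to 23 when 1 array was left out. Its median of 0.844 was 1.002 with array weights, 1.05 with the 6, 12 and 24 h arrays, and 0.786 to 1.05 when 1 array was left out. The erlotinib slope had 0 to 1 members past the threshold when 1 array was left out. The difference of the slopes, 0 as reported, had 2 after loess, 2 after centring, 5 with a trend and 0 to 3 when 1 array was left out, and its median of 0.66 was 0.901 with the 6, 12 and 24 h arrays. The count of members 2-fold over erlotinib in the 12 h combination array, 5 as reported, was 1 after loess and 2 after centring, both chosen after seeing the data. The cause of these changes was not tested. No direction that had been called reversed under any setting run.

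The arrays of the arms were matched by time in the reported fits, which hold time as a factor, and in the fits of both groups alone. Beyond time, no paired analysis was possible because the labels give no number for a culture or batch shared between arrays. Leaving out the untreated array gives no value for the comparisons with it. With 1 array per treatment and time, small differences between arms were not detectable, and levels near the array medians are close to background.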
